A study of Mus musculus with 30 samples.

Results

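The genes of white and brown fat cells were followed in Myc-driven mammary carcinomas of mice: Ucp1, Cidea, Fabp4, Cd36, Adipoq, Plin1, Lpl, Retn and Cfd. These 9 genes were chosen by name as adipocyte genes; the rule used no measured value, but the choice was made with earlier results of these data known. Of them 7 had a probe annotated to a single gene symbol, out of 15096 genes with such a probe, and each of the 7 had 1 probe. Plin1, which coats the lipid droplet of fat cells, and Cfd, the secreted protease adipsin, had none under their symbol, gene identifier or older names and were not analysed here. Retn was measured on too few arrays for the tests, so 6 genes were tested among 9919.

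All samples were total RNA of carcinomas that arose in the mammary gland of Myc-transgenic mice; the sources used here name neither the promoter of the transgene nor strain or age. RNA of 15 extracts was set against 1 common reference RNA of unstated make-up, each extract on 2 arrays with the channels exchanged. Extracts bear a number and a letter: number 579 stands on 5 extracts, and the other 9 numbers stand on 10, of which 546 holds 2. On both arrays 2 extracts (550-A and 561-B) are described under tumour progression and 12 under epithelial to mesenchymal transition, abbreviated EMT below. Extract 595-A has one description on each array and was left out of that comparison. Whether different extracts are different animals is not stated, so the spread behind every p-value is that between extracts and may be technical in part.

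Each value is a log2 ratio of an extract to the reference, the mean of its arrays. The numerator of the ratio is not labelled, so values are given by side: positive is the side on which Myc lay, at 3.16 ± 0.10 (SE, n = 15). Since the tumours carry extra Myc, positive values likely mean more RNA in the extract than in the reference, but that is not proved, and every sign below would turn with it. A ratio to the reference is not a level, so the values do not rank one gene's abundance against another's. In such bulk RNA, fewer cells of a type and less RNA per cell cannot be told apart. Of 10 listed genes of milk secreting mammary epithelium, 6 were tested. All 6 passed on the Myc side, against 33.5% of all genes (limma, adjusted p under 0.05). Among them were Csn3 at 6.29 ± 0.45 and Elf5 at 4.92 ± 0.34 (SE, n = 15). The list was chosen with earlier results of these data known, so it is not an independent check of the labelled tissue.

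Fat surrounds the mammary epithelium, and its white adipocytes store triglyceride in a single large droplet. They take up fatty acids that lipoprotein lipase (Lpl) frees from circulating lipoproteins, import them with the help of the scavenger receptor Cd36, and carry them on the binding protein Fabp4. They also secrete hormones such as adiponectin (Adipoq) and, in rodents, resistin (Retn). Brown and beige adipocytes burn lipid to make heat through Ucp1, which lets protons leak across the inner mitochondrial membrane, and in mice Cidea marks such cells and enlarges their lipid droplets. Cd36, Fabp4 and Lpl are not confined to fat: capillary endothelium and macrophages carry Cd36 and Fabp4, and secretory mammary epithelium makes Lpl.

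The sequences just upstream of Ucp1 and Adipoq are shown because these genes gave the steadiest ratio and the one that turned most with the channels. They come from RefSeq (GRCm38.p6), whose promoter table held 4 of the 7 genes, and are the 250 bases before the annotated start, at chr8:83290098-83290347 for Ucp1 and chr16:23146286-23146535 for Adipoq, both on the plus strand. Capitals mark AGGTCA, the core of many nuclear receptor sites.
Ucp1: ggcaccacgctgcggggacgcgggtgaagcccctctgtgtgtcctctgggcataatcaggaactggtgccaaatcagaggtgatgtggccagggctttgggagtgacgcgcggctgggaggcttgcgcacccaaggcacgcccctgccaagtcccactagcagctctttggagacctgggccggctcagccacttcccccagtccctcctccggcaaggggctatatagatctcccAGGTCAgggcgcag
Adipoq: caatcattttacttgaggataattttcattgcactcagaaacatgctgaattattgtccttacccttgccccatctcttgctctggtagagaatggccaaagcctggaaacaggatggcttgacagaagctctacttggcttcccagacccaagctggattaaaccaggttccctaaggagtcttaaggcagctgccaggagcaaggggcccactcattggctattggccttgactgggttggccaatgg
The Ucp1 stretch held 1 AGGTCA, 14 bases before the start, and the Adipoq stretch held none. Neither held the TATA box letters TATAAA or the E-box letters CACGTG. Only these exact spellings were searched, so neither gene is shown to lack a TATA box or an E-box. Both strands were searched, and the match overlapped no other motif. Over 32851 promoters of the same length, 14.0% held AGGTCA, 12.4% held TATAAA and 6.02% held CACGTG. These matches are letters in a window, and no binding was measured.

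Against the reference, 2 of the 6 tested genes passed on the Myc side, Ucp1 and Fabp4, and 1 passed on the opposite side, Cd36 (limma, adjusted p under 0.05). Over all 9919 genes, 33.5% passed on the Myc side and 14.9% opposite. The share of these genes that passed, 3 of 6, is therefore near that of all genes. The median log2 ratio of all genes was 0.16, which sets the scale for the small values below.

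Ucp1 lay on the Myc side in 15 of 15 extracts. Its log2 ratio was 1.60 in 546-A, the lowest, 2.30 at the median and 3.13 in 579-F, the highest. Above 3 stood 579-F, 579-A at 3.05 and 567-B at 3.0, while 597-B at 1.70, 548-A at 1.72 and 550-A at 1.79 came next to 546-A at the low end. The mean was 2.30 ± 0.13 (SE, n = 15), a 4.94-fold difference, with adjusted p = 3.31e-10 by limma. Its SD over extracts was 0.49, against a median SD of 0.59 over all genes. Single arrays gave the same side throughout: they averaged 2.84 ± 0.54 with the extract in channel 1 and 1.77 ± 0.56 with it in channel 2 (SD, n = 15 each).

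Cidea, the other gene linked to brown fat, had no settled side. Its log2 ratio was -4.43 in 548-A, 0.82 at the median and 2.47 in 561-B. It lay on the Myc side in 11 of 15 extracts, and on the opposite side in 548-A, 550-A, 579-D and 579-F. The mean of 0.44 ± 0.44 (SE, n = 15) did not pass (limma, adjusted p = 0.394). The value in 548-A came from a single array, and without that extract the mean was 0.79 with adjusted p = 0.0223. Among the 13 extracts measured on both arrays, both arrays fell on the same side in 5. Arrays with the extract in channel 1 averaged -0.58 ± 2.10 and those with it in channel 2 averaged 1.76 ± 1.56 (SD, n = 14 each). The side of Cidea thus changed between arrays of one RNA more often than not.

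Adipoq, the hormone gene most specific to fat cells, turned with the channel orientation. Over extract means it ran from -1.29 in 548-A through a median of 0.29 to 1.14 in 561-B, with a mean of 0.20 ± 0.18 (SE, n = 15; limma, adjusted p = 0.377). With the extract in channel 1 none of 15 arrays lay on the Myc side, and values ran from -4.94 to -0.05 with a mean of -1.82 ± 1.22 (SD). With the extract in channel 2 14 of 15 did, from -0.78 to 3.52 with a mean of 2.22 ± 1.04 (SD). The exception, 548-A, was the only extract whose arrays agreed on a side. The mean near 0 is thus the balance of large opposite values; without 546-A and 548-A it was 0.41, with adjusted p = 0.0133.

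Retn had values on 19 arrays of 13 extracts, with none in 546-A or 548-A, and on both arrays in 6 extracts. Its log2 ratio was -0.79 in 550-A, 1.22 at the median and 3.17 in 567-B, and it lay on the Myc side in 11 extracts. The mean was 1.19 ± 0.31 (SE, n = 13). With no filter on missing values limma gave adjusted p = 0.00597. Arrays with the extract in channel 1 averaged 0.66 ± 2.12 (SD, n = 10), and 6 of these 10 were positive. All 9 with it in channel 2 were positive, at 1.69 ± 1.67 (SD). Of the 6 extracts with both arrays, the arrays fell on the same side in 3. Of its values 68.4% were, to 3 decimals, log2 values of simple fractions with whole numbers of at most 20 above and below, against 33.6% of all values in the table.

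**Figure D1:**
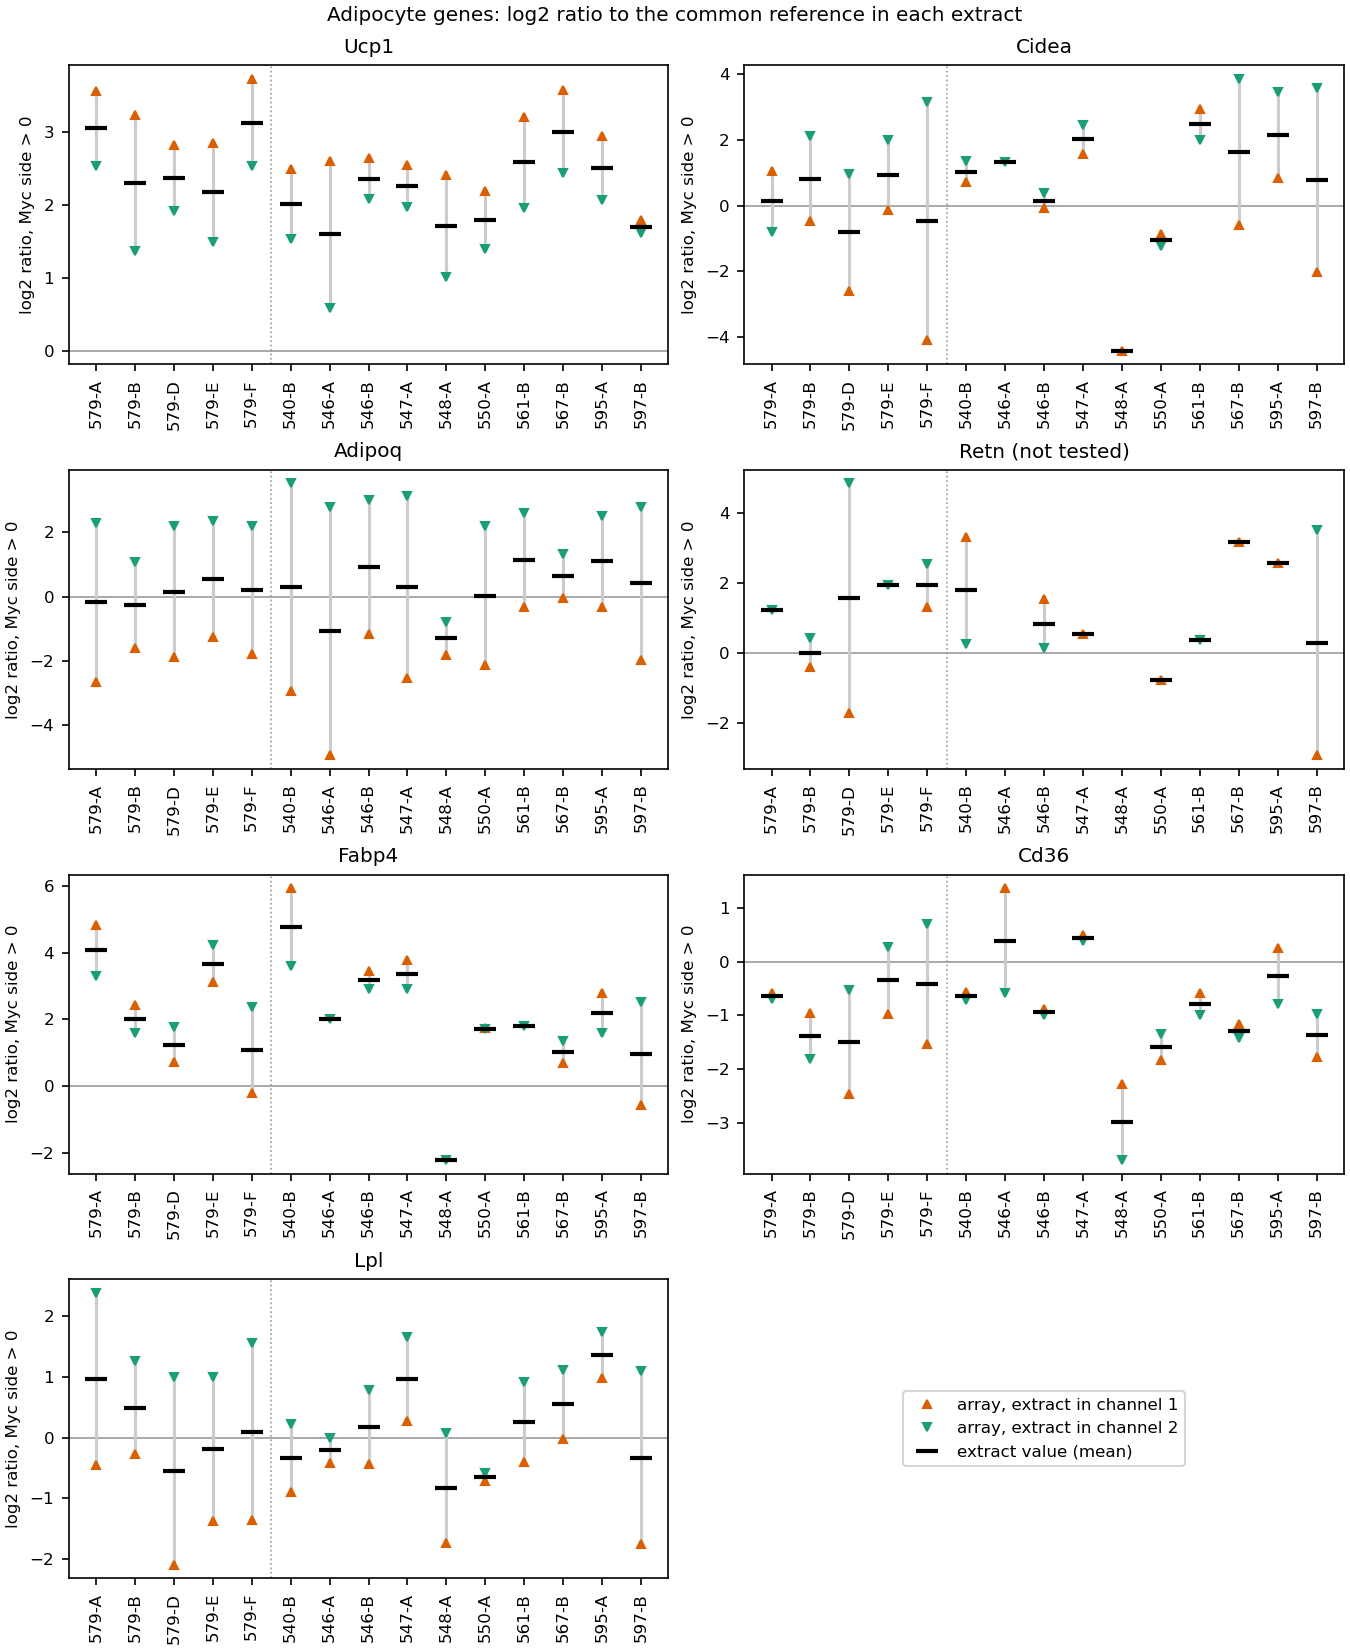
Log2 ratio to the reference (vertical axis) of the 7 measured adipocyte genes in each of the 15 extracts (horizontal axis, number 579 left of the dotted line and the other numbers right of it). Triangles are single arrays by channel orientation and bars the extract value: all Ucp1 arrays lie above 0, Adipoq arrays part by orientation, and 548-A is the lowest extract for Cidea, Fabp4, Cd36, Adipoq and Lpl.

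Fabp4, the intracellular fatty acid carrier, varied most among the 3 genes that passed. Its log2 ratio was -2.22 in 548-A, 2.0 at the median and 4.77 in 540-B. Extracts 540-B, 579-A at 4.07 and 579-E at 3.67 were high, 597-B at 0.97, 567-B at 1.02 and 579-F at 1.08 were low, and 548-A alone lay on the opposite side. The mean was 2.06 ± 0.43 (SE, n = 15), a 4.16-fold difference (limma, adjusted p = 0.00037). Its SD of 1.68 exceeded that of 98.4% of all genes. The channel orientation made little difference to its mean, 2.39 ± 2.0 over 12 arrays in channel 1 and 2.10 ± 1.46 over 15 in channel 2 (SD). Values of 546-A, 548-A and 561-B rested on the channel 2 array only.

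Cd36 lay on the opposite side in 13 of 15 extracts. It was -2.99 in 548-A, -0.79 at the median and 0.45 in 547-A. The positive extracts were 547-A and 546-A at 0.40. The mean of -0.89 ± 0.22 (SE, n = 15) is a 1.85-fold lower ratio, with adjusted p = 0.0021 by limma. Its arrays averaged -0.90 ± 1.05 with the extract in channel 1 and -0.88 ± 1.04 with it in channel 2 (SD, n = 15 each), the smallest orientation difference of the 6 genes. Fabp4 and Cd36, which act in the same uptake route, thus lay on opposite sides of the reference.

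Lpl lay near the reference on average. Its log2 ratio was -0.83 in 548-A, 0.10 at the median and 1.36 in 595-A, with 8 extracts on the Myc side and 7 opposite. The mean was 0.12 ± 0.17 (SE, n = 15; limma, adjusted p = 0.586). Arrays averaged -0.71 ± 0.83 with the extract in channel 1 and 0.95 ± 0.77 with it in channel 2 (SD, n = 15 each), and both arrays of an extract fell on the same side in 3 of 15.

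**Figure D2:**
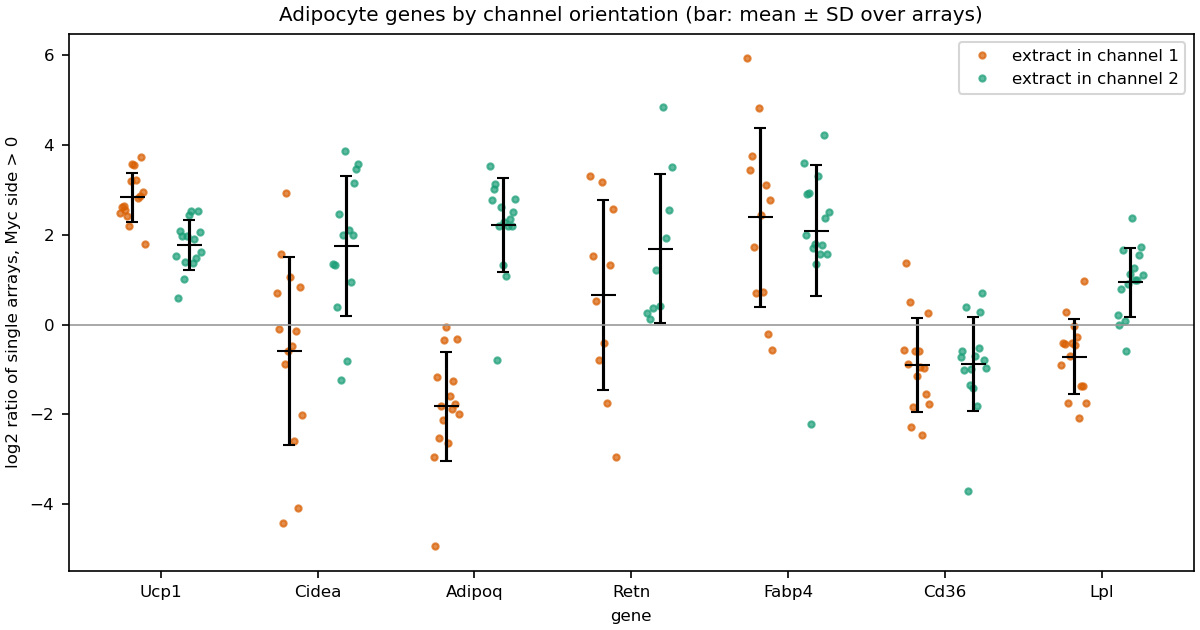
Log2 ratio of single arrays (vertical axis) for each adipocyte gene (horizontal axis), with the extract in channel 1 left and in channel 2 right of each pair; points are arrays and bars the mean ± SD. Adipoq averages -1.82 in channel 1 and 2.22 in channel 2, whereas Cd36 averages -0.90 and -0.88.

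The orientation difference itself was tested as a dye term for each probe, a test chosen after the values were seen. It passed for 4 of the 6 genes, against 49.6% of all genes (limma, adjusted p under 0.05). The difference, channel 1 minus channel 2, was -4.04 for Adipoq (adjusted p = 2.14e-06), -2.08 for Cidea (0.0188), -1.66 for Lpl (3.87e-05) and 1.08 for Ucp1 (1.55e-05). Fabp4 at -0.10 (adjusted p = 0.868) and Cd36 at -0.02 (0.962) did not pass. The dye term rests on the extracts with both arrays, 12 for Fabp4 and 13 for Cidea, so it can depart from the means over all arrays given above, as it does in sign for Fabp4. The median absolute difference over all genes was 0.60. Where an extract has both arrays this difference cancels in its mean; in 546-A and 548-A, which lack an array value for 4021 and 3000 kept probes, it often does not.

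Between extracts, limma's F-test asked whether extracts differ by more than the arrays of one RNA do. It passed for 0 of the 6 genes, against 7.21% of all genes, and 2 of them, Ucp1 and Fabp4, were under 0.05 before adjustment. Adjusted p was 0.103 for Fabp4, 0.107 for Ucp1, 0.228 for Cd36, 0.325 for Lpl, 0.612 for Cidea and 0.887 for Adipoq. After each array was centred on its median Fabp4 passed, with adjusted p = 0.0255. Over probes with values on all 30 arrays Ucp1 passed, with adjusted p = 0.0447. The order of extracts on one array set was compared with that on the other. Pearson's r was 0.62 for Ucp1 (rho 0.59, n = 15, permutation p adjusted over 7 genes 0.101) and 0.58 for Fabp4 (rho 0.61, n = 12, adjusted permutation p 0.176). It was 0.37 for Cd36, 0.30 for Lpl, -0.16 for Cidea, -0.24 for Adipoq and -0.72 for Retn, and none passed after adjustment. For Adipoq, Cidea and Retn, r between the arrays of an extract was below 0.

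Extract 548-A was the lowest of 15 for 5 of the 6 genes, all but Ucp1. It was also the lowest for 24.6% of all genes. Its median over all measured probes was -0.24 where extracts ranged from -0.27 to 0.45, and its Cidea and Fabp4 values each rest on 1 array. Its mean over 5 endothelial markers, 0.38, was the lowest of 15 (highest 2.02 in 540-B), and so was its mean over 6 lymphocyte markers, -1.50 (highest 0.04). The 1 erythroid marker, at 1.66, was also lowest in 548-A. Its means over macrophage markers (0.17), fibroblast markers (-1.82), milk genes (2.44) and muscle markers (-0.18) were not the lowest. The part of these in the low values was not tested.

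Number 579 was set against the other numbers because it alone holds 5 extracts. None of the 6 genes passed, and 0% of all genes did (limma, adjusted p under 0.05). Before adjustment 0 of the 6 and 344 of all genes were under 0.05. Ucp1 averaged 2.60 in 579 extracts and 2.15 in the others, a difference of 0.45 ± 0.26 (SE). Fabp4 averaged 2.41 in 579 extracts and 1.88 in the others, a difference of 0.54 ± 0.85, with 579 extracts spread from 1.08 to 4.07. Cidea averaged 0.12 and 0.61, and Adipoq 0.10 and 0.25, 579 before the others. For Cd36, at -0.85 and -0.90, and Lpl, at 0.16 and 0.10, in the same order, the differences were 0.05 ± 0.46 and 0.07 ± 0.35. The groups overlapped for every one of the 6 genes, as the plot of values by extract shows. How many of all genes overlap in this way was not counted, so the overlap is not read as a trait of these genes.

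The 2 progression extracts were set against the 12 EMT extracts. Again 0 of the 6 genes passed, against 0.0101% of all genes, which is 1 gene, and before adjustment 0 of the 6 and 401 of all genes were under 0.05 (limma). Adipoq averaged 0.59 in progression extracts and 0.06 in EMT extracts, a difference of 0.53 ± 0.50 (SE), and Cidea 0.71 and 0.26, a difference of 0.46 ± 1.22. Ucp1 averaged 2.19 in progression extracts and 2.31 in EMT extracts, Fabp4 1.75 and 2.10, Lpl -0.20 and 0.07, and Cd36 -1.19 and -0.89. The progression extracts lay far apart for Cidea, at -1.04 in 550-A and 2.47 in 561-B, and close for Fabp4, at 1.72 and 1.79. In the same order Ucp1 was 1.79 and 2.59, Cd36 -1.59 and -0.79, Lpl -0.65 and 0.25, and Adipoq 0.03 and 1.14. With 2 extracts on one side, differences of this size could not be resolved.

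The wider fat cell programme was read from lists of genes grouped by role, which include the genes above. Which cells the RNA of these genes came from was not measured, so a passing list is not read as a sign of fat cells. Counts are of genes past limma's adjusted p of 0.05 against the reference, on the gene's probe with most arrays, and each is to be read against the 33.5% of all genes that passed on the Myc side and the 14.9% that passed opposite. Of 12 tested genes of the lipid droplet and its breakdown, 6 passed on the Myc side and 0 opposite, with a median log2 ratio of 0.37, against 0.16 for all genes. G0s2, an inhibitor of the lipase Pnpla2, led at 2.65 ± 0.29 (SE, n = 15), with Mgll, which splits monoglycerides, at 2.25 ± 0.24, Plin2, the droplet coat of most cell types, at 2.05 ± 0.23, and Pnpla2 itself at 1.75 ± 0.16. Plin5, another droplet coat gene, at 1.03 and Bscl2, which encodes the droplet assembly protein seipin, at 0.29 also passed. Besides Cidea, the 5 that did not pass were the droplet coat genes Plin3 at -0.22 and Plin4 at 0.11, Cidea's relatives Cideb at 0.18 and Cidec at -0.16, and hormone-sensitive lipase, Lipe, at 0.19 (adjusted p = 0.0608). Genes named below that did not pass were picked after their values were seen.

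Of 12 tested genes of fatty acid uptake and binding, 5 passed on the Myc side and 4 opposite, where all genes gave 33.5% and 14.9%. Their median was -0.09. After Fabp4 came Fabp5, the binding protein of epithelia and macrophages, at 2.04 ± 0.27. On the opposite side lay Cav1, the coat protein of caveolae, at -3.21 ± 0.48 (SE, n = 15), ahead of Cd36. Between extracts, limma's F-test passed for 5 of the 12 uptake genes, Cav1 among them, for 3 of 12 droplet genes, 3 of 12 thermogenic genes, 2 of 17 synthesis genes, 1 of 14 transcription factors and 0 of 3 secreted products, against 7.21% of all genes.

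Of 17 tested genes of glucose uptake and triglyceride synthesis, 12 passed on the Myc side and 0 opposite, where 33.5% and 14.9% of all genes did. Their median was 0.81. Gpd1, which makes the glycerol backbone, stood at 2.45 ± 0.31 and fatty acid synthase, Fasn, at 1.49 ± 0.13 (SE, n = 15). The insulin-responsive glucose transporter Slc2a4 passed at 0.62 ± 0.21, but its arrays averaged -0.35 with the extract in channel 1 and 1.33 with it in channel 2. Dgat2, which joins the last fatty acid to triglyceride, passed at 0.47 and no longer did after the arrays were centred. Acaca of this list had 3 kept probes. The probe that was read stood at 0.41 and did not pass (limma, adjusted p = 0.167). Of the others, one passed at 0.73 (adjusted p = 0.0009) and one did not at 0.33 (adjusted p = 0.275).

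Of 14 tested transcription factors of fat cell formation, 7 passed on the Myc side and 2 opposite, against 33.5% and 14.9% of all genes. Their median was 0.32. Srebf1, the driver of lipid synthesis genes, stood at 1.91 ± 0.19, Cebpa at 1.81 ± 0.11 and Cebpb at 1.41 ± 0.10 (SE, n = 15). Cebpa and Cebpb drive adipocyte differentiation and also act in other tissues. The sterol receptor Nr1h3 stood at 1.05 ± 0.23. Klf15 at 0.58, the nuclear receptor partner Rxra at 0.50 and the brown fat factor Ebf2 at 0.48 passed by less, and Rxra no longer passed after the arrays were centred. Dlk1, the preadipocyte protein that restrains differentiation, lay farthest opposite, at -3.67 ± 0.26, followed by Ebf1 at -0.76 ± 0.24. The arrays of Klf15, Ebf2 and Ebf1 averaged on opposite sides in the 2 orientations. Pparg, the central regulator of adipocyte identity, stood at 0.16 ± 0.22 (adjusted p = 0.564), with an orientation difference of -3.18, so its side was not resolved.

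Ucp1 had the highest ratio of its own list. Of 12 tested thermogenic and brown fat genes, 4 passed on the Myc side, a share near the 33.5% of all genes, and 0 opposite, against 14.9%. Their median was 0.12, below the 0.16 of all genes. Besides Ucp1 these were the carnitine carrier Slc25a20 at 0.99 ± 0.33 (adjusted p = 0.0128), the thyroid hormone deiodinase Dio2 at 0.45 ± 0.12 (0.0074) and the cytochrome oxidase subunit Cox8b at 0.38 ± 0.12 (0.016; SE, n = 15). Of these, Dio2 arrays averaged -0.18 with the extract in channel 1 and 1.08 with it in channel 2, and Cox8b arrays -1.14 and 1.91. The coactivator Ppargc1a at 0.12, the oxidase subunit Cox7a1 at 0.13, Ppara at 0.26 and Ucp3 at -0.06 did not pass. Of 3 tested secreted products, 1 passed on the Myc side and 0 opposite, with a median of 0.23: Agt, the angiotensin precursor, at 1.31 ± 0.37 (adjusted p = 0.0037).

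Over the programme as a whole, the side of a passing gene turned between orientations in 3 of 9 transcription factors, 2 of 4 thermogenic genes, 1 of 9 uptake genes, 1 of 12 synthesis genes and 0 of 6 droplet genes, and in 656 of the 4798 passing genes of the table.

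**Figure D3:**
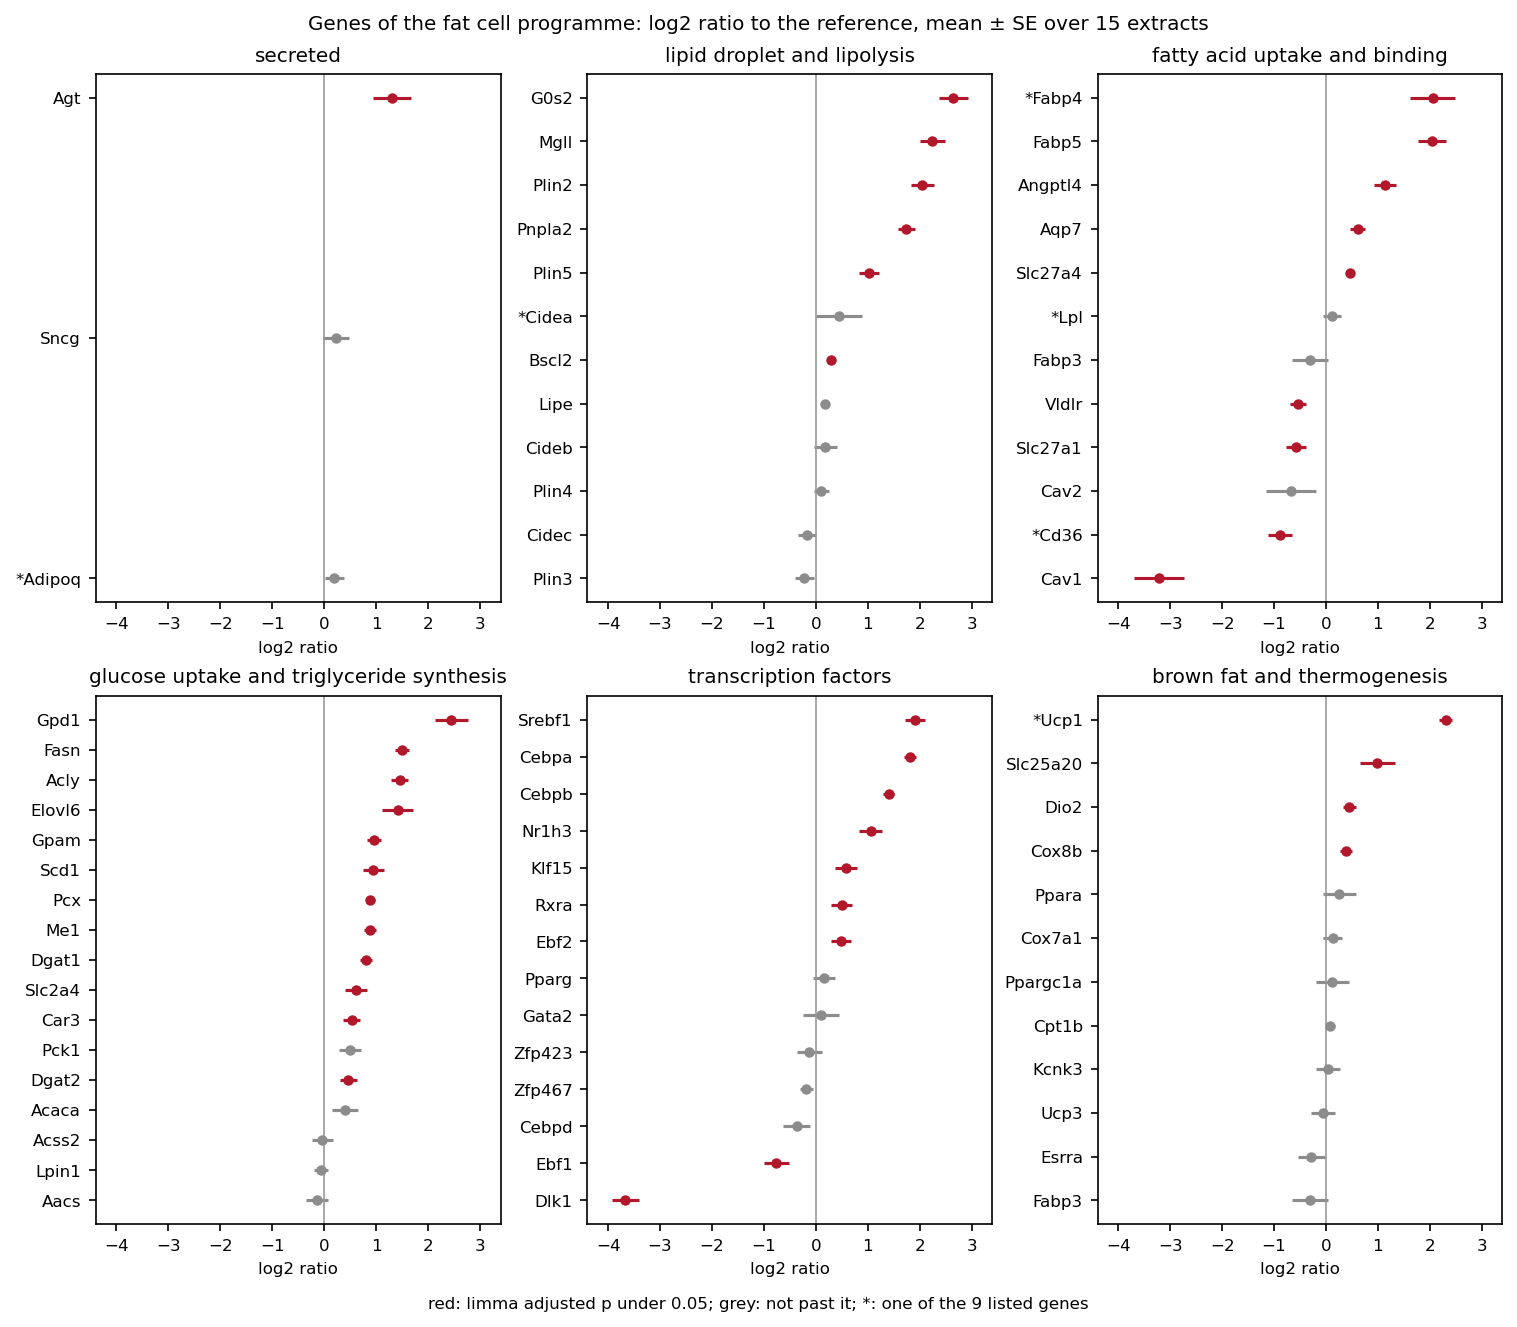
Mean log2 ratio to the reference (horizontal axis) with SE over 15 extracts for the tested genes (rows) of each list of the fat cell programme. Red points pass limma's adjusted p of 0.05: 12 of 17 synthesis genes and 6 of 12 droplet genes do on the Myc side, and Ucp1 at 2.30 lies above every other gene of the thermogenic list.

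Markers of other cell types were measured in the same extracts, where 33.5% of all genes passed on the Myc side and 14.9% opposite. Of 11 listed endothelial markers 5 were tested and 5 passed on the Myc side, and their mean ran from 0.38 to 2.02 over extracts. Of 10 macrophage markers 8 were tested, 6 passed on the Myc side and 1 opposite, and their mean ran from -0.06 to 1.40. Lyz2 of that list had 2 kept probes, at 0.31, which was read, and at 3.27. Of 10 fibroblast markers 6 were tested, 1 passed on the Myc side and 4 opposite, and their mean ran from -3.13 to 1.56. Of 6 tested lymphocyte markers 3 passed on the opposite side, of 7 muscle markers 1 did, and the 1 tested erythroid marker passed on the Myc side. Fabp4 correlated with the endothelial mean at r = 0.54 (rho 0.25, n = 15, adjusted permutation p 0.244), at 0.34 without 548-A and at 0.04 without 540-B and 548-A. With the macrophage mean it gave r = 0.47 (rho 0.50, adjusted permutation p 0.244), 0.35 without 548-A and 0.67 without 579-D and 579-E. With the erythroid marker it gave r = 0.53 (rho 0.36, adjusted permutation p 0.244), and 0.32 without 548-A. For the lymphocyte, fibroblast, milk and muscle means r was 0.44, 0.40, 0.15 and -0.03. None passed, and Fabp4 was not shown to follow endothelial or macrophage markers in particular. The part of these cells in the Fabp4 values was not tested further.

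Of 48 relations, of 6 genes with 7 marker lists and with the extract median, 1 passed after adjustment: Lpl followed the genes of milk secretion. Against the mean of Csn2, Csn3, Glycam1, Btn1a1, Xdh and Elf5, Pearson's r was 0.86 and rho 0.88 (n = 15 extracts, adjusted permutation p 0.0014 and 0.0029). In 595-A Lpl was 1.36 where the milk mean was highest, 5.48, and 547-A and 579-A, both at 0.97, also had high milk means. In 550-A at -0.65 and 579-D at -0.54 both were low, whereas 548-A at -0.83 had the lowest Lpl and the fourth lowest milk mean. Without 579-D and 579-E, the extracts farthest from the median milk mean, r was 0.91, and in the 10 extracts of other numbers it was 0.93. It was 0.88 without 548-A and 0.82 after each array was centred on its median. By gene it ranged from 0.43 for Elf5 to 0.86 for the beta-casein gene Csn2. How many of all genes follow the milk mean this closely was not measured, so the relation is not shown to be particular to Lpl. Lpl itself did not pass between extracts (limma's F-test, adjusted p = 0.325), and r between its arrays was 0.30.

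Values of one array share its noise, so Lpl was also set against milk genes of the other array. Lpl in channel 1 against milk genes in channel 2 gave r = 0.76 (rho 0.74, n = 15, adjusted permutation p 0.0021 over 10 relations). Lpl in channel 2 against milk genes in channel 1 gave 0.48 (rho 0.52, adjusted permutation p 0.0753). Across arrays the relation thus passed in 1 pairing and did not pass in the other. It was picked because it passed among 48 relations on these same arrays. The adjustment over 10 relations does not cover that choice, so these p-values describe the relation and are no independent test of it.

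**Figure D4:**
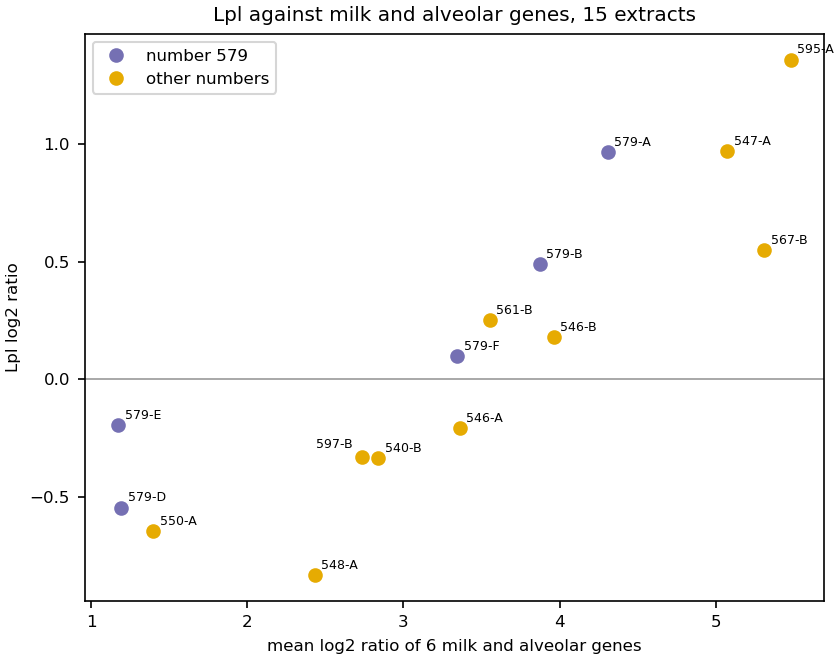
Lpl log2 ratio (vertical axis) against the mean log2 ratio of 6 milk and alveolar genes (horizontal axis) in the 15 extracts, those of number 579 in violet and the others in yellow. The points rise together, from 548-A, 550-A and 579-D at the bottom to 595-A at the top right.

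Among themselves, 5 of 15 pairs of adipocyte genes passed on Pearson's r after adjustment and 0 of 15 on Spearman's rho, where 6 were under 0.05 before adjustment (permutation tests, lowest adjusted p 0.0745). The share of pairs drawn from all genes that would pass was not measured, so the count is not read as a trait of these genes. Values of both genes of a pair come from the same arrays and share their noise. Cidea and Cd36 gave r = 0.76 and rho 0.65 (n = 15, adjusted permutation p 0.0354 on r), and r was 0.39 without 548-A and 550-A. Fabp4 and Cd36 gave r = 0.69 and rho 0.58 (adjusted permutation p 0.0404 on r), and 0.46 without 540-B and 548-A. Cidea gave 0.64 with Lpl and 0.63 with Adipoq, and 0.46 and 0.32 without 548-A and 550-A. Leaving out 548-A alone gave 0.50 for Cidea and Cd36, 0.41 for Fabp4 and Cd36, 0.56 for Cidea and Lpl and 0.34 for Cidea and Adipoq, so these relations rest partly on that extract. Ucp1 and Lpl gave r = 0.61 and rho 0.60 (adjusted permutation p 0.0485 on r), and 0.64 without 579-A and 579-F. The white fat pair Fabp4 and Adipoq gave 0.41, and -0.01 without 548-A. Against the median of all measured probes in an extract, Adipoq gave r = 0.68 and rho 0.70 and Cidea 0.65 and 0.52 (n = 15, adjusted permutation p 0.0944 each on r).

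For each gene the 3 genes with the highest r over the 15 extracts are given as a description. Ucp1 ran most like Nedd4 (0.88), Heph (0.87) and Adh5 (0.85), and Lpl most like Snrpe (0.89), Lsm7 (0.88) and Ap2a1 (0.88). Adipoq ran most like Esr1 (0.93), Ccdc173 (0.92) and Glra1 (0.91). Cd36 ran most like Frat1 (0.91), Xpo6 (0.87) and 1110059G10Rik (0.87). Fabp4 ran most like Chmp1b (0.85), the macrophage complement gene C1qa (0.84) and Lrrc42 (0.81), and without 548-A these were 0.68, 0.77 and 0.58. Cidea ran most like Vti1a, Pias4 and Tdgf1 (0.89 each), and without 548-A these were 0.70, 0.68 and 0.73. No adipocyte gene was among the nearest of another.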

How the data were processed

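The authors' deposited table gives, for 22800 probes on 30 arrays, values read here as log2 ratios of the channels; background correction and normalization: not given in the sources used here. Arrays held 13434 to 21991 measured probes, and their number limits the precision. The value 16.61 (8839 cells) was taken as a placeholder and, with 95268 blank cells, as missing. Signs were turned on arrays with the extract in channel 2, and the 2 arrays of an extract were averaged. Probes with values on at least 24 arrays and on 1 array of every extract were kept, 12888 in all.

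Extract means were tested against 0, and between groups, with limma 3.58.1 (lmFit, eBayes) in R 4.3.3; differences between extracts used limma's F-test on single arrays with a dye term. P-values were Benjamini-Hochberg adjusted over all kept probes. A gene was read from its kept probe with most arrays, ties by first identifier. Correlations used 100000 permutations (SciPy 1.17.1), two-sided. The test against the reference leaves out the reference's own spread. From each list the text names the 2 passing genes with the largest difference on each side, every passing thermogenic gene and transcription factor, and the 3 nearest genes of each adipocyte gene; other names were added after values were seen. The members and lists were chosen with earlier results of these data known. Scripts were tested on simulated data. Symbols come from the platform's annotation; probe coordinates are not given.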

Additional observations from a re-analysis of the deposited data

Results flagged for a closer look

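Cidea in 548-A, at a log2 ratio of -4.43, lay farther from the other extracts of numbers other than 579 than Dixon's test allows. It was 1 of 14 such checks of the 7 genes in the groups of 579 and other extracts, and chance gives about 1 in 20. The value rests on 1 array with the extract in channel 1, the orientation in which Cidea ran lower.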

How the results depend on the processing

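Ucp1, Fabp4 and Cd36 kept their side and passed against the reference under every alternative run, with means of 1.77 to 2.84, 1.86 to 2.69 and -1.0 to -0.74. The count of genes passing was 3, but 5 with the extract in channel 1 only, 6 in channel 2 only and 5 without 546-A and 548-A; leaving out single extracts gave 3 to 4, the 4 being Cidea at 0.79 without 548-A. In channel 1 only, Cidea reversed to -0.58, Adipoq to -1.82 and Lpl to -0.71, by the orientation difference given above; Lpl was -0.010 with whole-number ratios set missing. Without 546-A and 548-A Cidea passed at 0.75 (limma adjusted p = 0.0376) and 2 secreted genes passed instead of 1. Between extracts the count of 0 became 1 with arrays centred (Fabp4), 1 over probes on all 30 arrays and 1 with whole-number ratios missing (Ucp1 in both); the cause was not tested. The counts for number 579 and for progression stayed 0. Of all calls 69.2% were on the Myc side, against 59.3% after centring, 45.4% in channel 1 only and 79.2% in channel 2 only. Cidea and Fabp4 have no value over all 30 arrays, and with whole-number ratios missing only Ucp1 could be fitted between extracts. The groups compared, 579 against the other numbers and progression against EMT, share no extract number, so their extracts could not be paired. Channel intensities were not used here, so limits by signal over background were not measured.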
